A study of Rattus norvegicus with 9 samples.

Results

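The genes described here encode voltage-gated calcium channels and the channels that release calcium from intracellular stores. They were taken from the gene table by symbol, as protein-coding genes of the pore-forming α1 subunits (Cacna1), the α2δ (Cacna2d), β (Cacnb) and γ (Cacng) subunits, the ryanodine receptors (Ryr) and the inositol trisphosphate receptors (Itpr), and 31 of the 30507 rows of the table qualified. These were 7 high-voltage-activated pores, 3 T-type pores, 4 α2δ, 4 β and 8 γ subunits, 2 ryanodine receptors and 3 inositol trisphosphate receptors. A second row of Cacng8 with at most 9 counts in any library was left out, and Ryr3 is typed as a pseudogene in the table and is given only as an aside. RNA was sequenced from the spinal cord, from the ninth to the eleventh thoracic segment, of female wild-type Sprague-Dawley rats, 8 weeks old at the start and killed at 35 dpi (days post-injury), with 3 libraries in each group. Sham rats had the spinal cord exposed and no contusion (their label reads "No treatment"). SCI (spinal cord injury) rats had a contusion of 150 kdyn at the tenth thoracic level and an external plug without an electrode. SCI + SCS rats had the same contusion, an epidural electrode and high-frequency spinal cord stimulation (HF-SCS) at 10 kHz and 0.12 mA for 2 h per day from 1 dpi. In the comparison of SCI + SCS with SCI, the electrode and the stimulation cannot be told apart.

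Voltage-gated calcium channels open on depolarization and let calcium into the cell. The pore is the α1 subunit, while the α2δ and β subunits bring it to the membrane and tune its gating. P/Q-type (Cacna1a) and N-type (Cacna1b) channels trigger transmitter release at synapses of the dorsal horn, and N-type channels and the α2δ-1 subunit are the targets of ziconotide and of gabapentin, both used against pain. L-type channels (Cacna1c, Cacna1d, Cacna1f and Cacna1s) couple depolarization to contraction, gene transcription or sustained release, and T-type channels (Cacna1g, Cacna1h and Cacna1i) open near the resting potential and shape firing. Most γ subunits of neurons serve as auxiliary proteins of AMPA-type glutamate receptors rather than of calcium channels. Ryanodine receptors and inositol trisphosphate receptors sit in the endoplasmic or sarcoplasmic reticulum and release stored calcium, the first in response to calcium itself or, in skeletal muscle, to the voltage sensor Cacna1s, the second after receptor signaling through phospholipase C.

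The libraries held between 62844376 and 88358570 counts on genes. Levels are given as CPM (counts scaled to a common library size, with TMM factors over the 9 libraries), and 3 counts, taken as the smallest level the depth can show, corresponded to 0.0341 to 0.0472 CPM. Each library correlated with its own group at a median r of 0.977 to 0.990 over genes, and with the other groups at 0.909 to 0.971. SCI replicates 1 and 3 carried skeletal muscle RNA. The summed level of 19 muscle genes was 4723 and 1613 CPM there, against 94.8 CPM in SCI replicate 2. It was 97.7 to 166 CPM in the Sham libraries, highest in Sham replicate 2, and 87.3 to 102 CPM in the SCI + SCS libraries. The summed level of 16 neuron genes was 11587, 7384 and 5202 CPM in the Sham libraries, 2645, 1503 and 790 CPM in the SCI libraries and 2408, 2770 and 4040 CPM in the SCI + SCS libraries. In Sham replicate 1 its highest genes were Nefm (2484 CPM), Nefl (2316), Snap25 (2220), Nefh (1997) and Tubb3 (1096). Syt1 was at 14.7 and Rbfox3 at 106 CPM there. The summed level of 8 genes of oligodendrocytes, the myelin-forming cells of the cord, was 59249 to 82999 CPM in Sham, 17774 to 33294 CPM in SCI and 30882 to 36631 CPM in SCI + SCS. In whole tissue, fewer cells of a type and less RNA per cell cannot be told apart, and this holds for every value below.

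Of the 30 members that could be tested between SCI and Sham, 15 were lower and 2 higher in SCI at a fold change above 2 and an adjusted p under 0.05 (edgeR's quasi-likelihood test, with p-values adjusted over 17822 genes by the Benjamini-Hochberg method), the rule by which a gene is called here. Over all genes tested the same rule called 13.6% lower and 13.4% higher. Without the fold threshold, 19 members were lower and 3 higher, against 25% and 24.3% of all genes. The median log2 fold change was -1.01 over the members and 0.02 over all genes. Fold changes ran from a 13.3-fold lower level of Cacng2 to a 43.2-fold higher level of Cacna1s, and the higher end consisted of genes that are high in the 2 libraries with muscle RNA. The call held without each single library for 12 of the 15 lower members and was lost for Cacna1a, Cacnb2 and Cacng2, whose values follow with those genes. With SCI replicates 1 and 3 both left out (an alternative chosen after seeing the data), 1 member, Cacnb4, was still called among 1 SCI and 3 Sham libraries. The log2 fold changes of the other 14 lower members without those 2 libraries were between -1.07 and -3.41. The 16 neuron genes were all called lower in SCI, with a median log2 fold change of -2.34, and the part of fewer neurons in the member values was not tested.

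**Figure D1:**
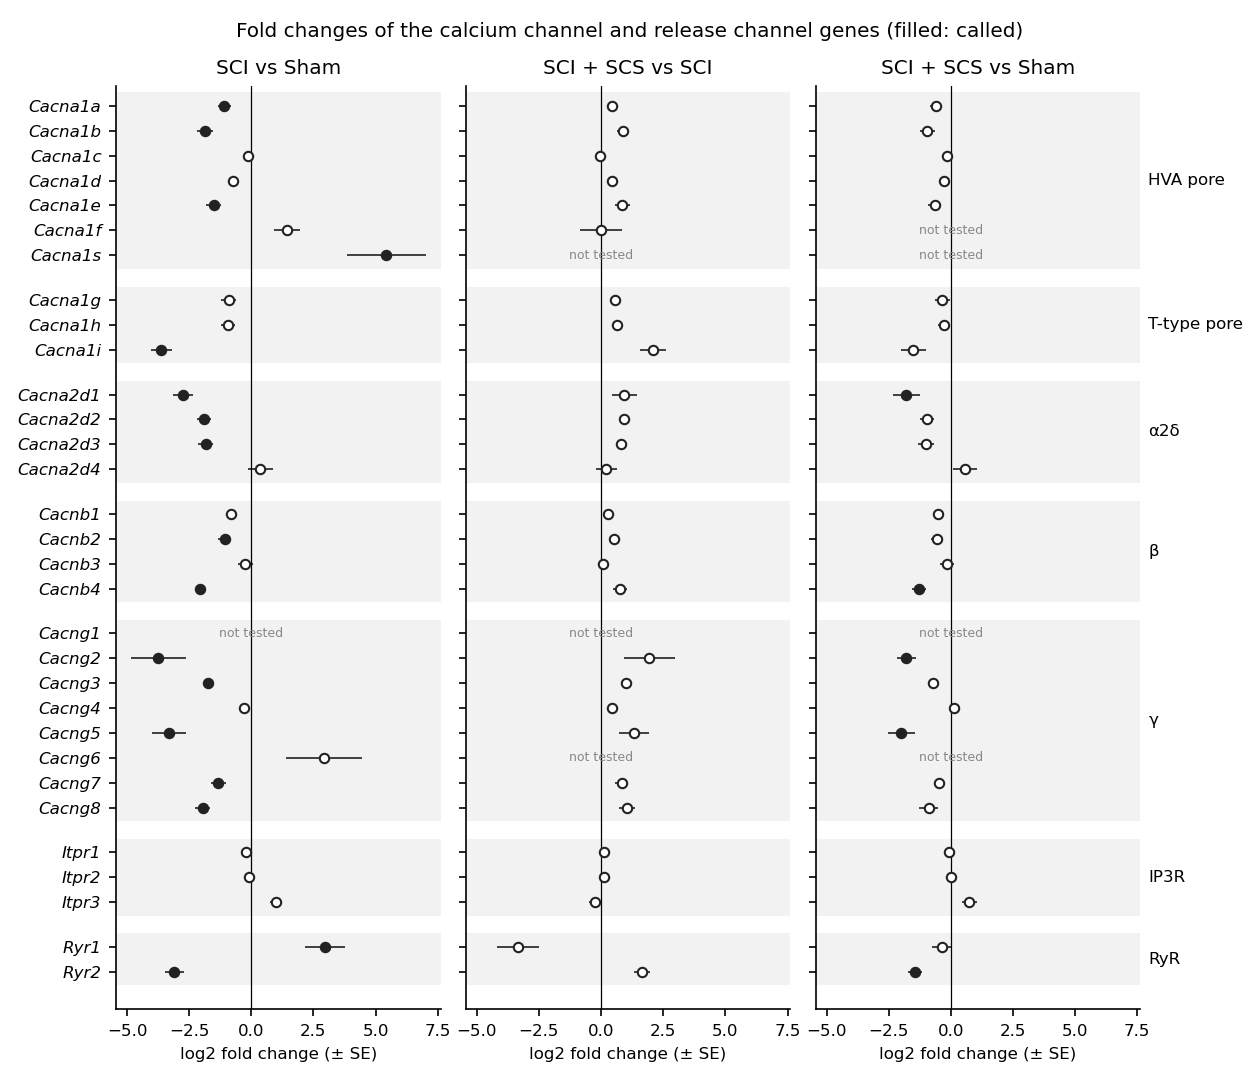
Log2 fold change with its standard error for each member tested in the 3 comparisons (30, 28 and 27 of 31, the others marked as not tested), on a shared x axis, grouped by role (HVA, high-voltage-activated; RyR, ryanodine receptor; IP3R, inositol trisphosphate receptor). Filled points were called (adjusted p under 0.05 and a fold change above 2): 17 in SCI against Sham, 0 in SCI + SCS against SCI and 5 in SCI + SCS against Sham.

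Levels between genes were compared per length, as FPKM (counts scaled by gene length and library size). The highest levels belonged to auxiliary subunits. Cacng7 had the highest level of all members, at 44.2 ± 6.96 FPKM in Sham (mean ± SD, n = 3), followed by Cacnb3 at 16.2 ± 6.36 FPKM and Cacng4 at 10.3 ± 0.285 FPKM, and the ranges of Cacnb3 and Cacng4 were next to each other, from 11.7 to 23.5 FPKM and from 9.97 to 10.5 FPKM. The most abundant pore was Cacna1a at 6.23 ± 1.98 FPKM. The release channel with the highest mean was Itpr3 at 3.9 ± 1.14 FPKM, with Itpr1 close by at 3.18 ± 0.55 FPKM. In Sham replicate 1 Itpr1 was slightly above Itpr3, at 2.637 against 2.608 FPKM. At the other end, Cacna1f at 0.0109 ± 0.00575 FPKM, Cacna1s at 0.0251 ± 0.0179 FPKM, Cacng1 at 0.0158 ± 0.0274 FPKM and Cacng6 at 0.0302 ± 0.0175 FPKM were the scarcest in Sham, with at most 33 counts in any Sham library. The length behind the FPKM values differed between libraries by up to 1.78-fold for a member with over 500 counts in all, Cacna2d1. Small differences in FPKM between libraries are therefore less reliable than those in CPM.

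**Figure D2:**
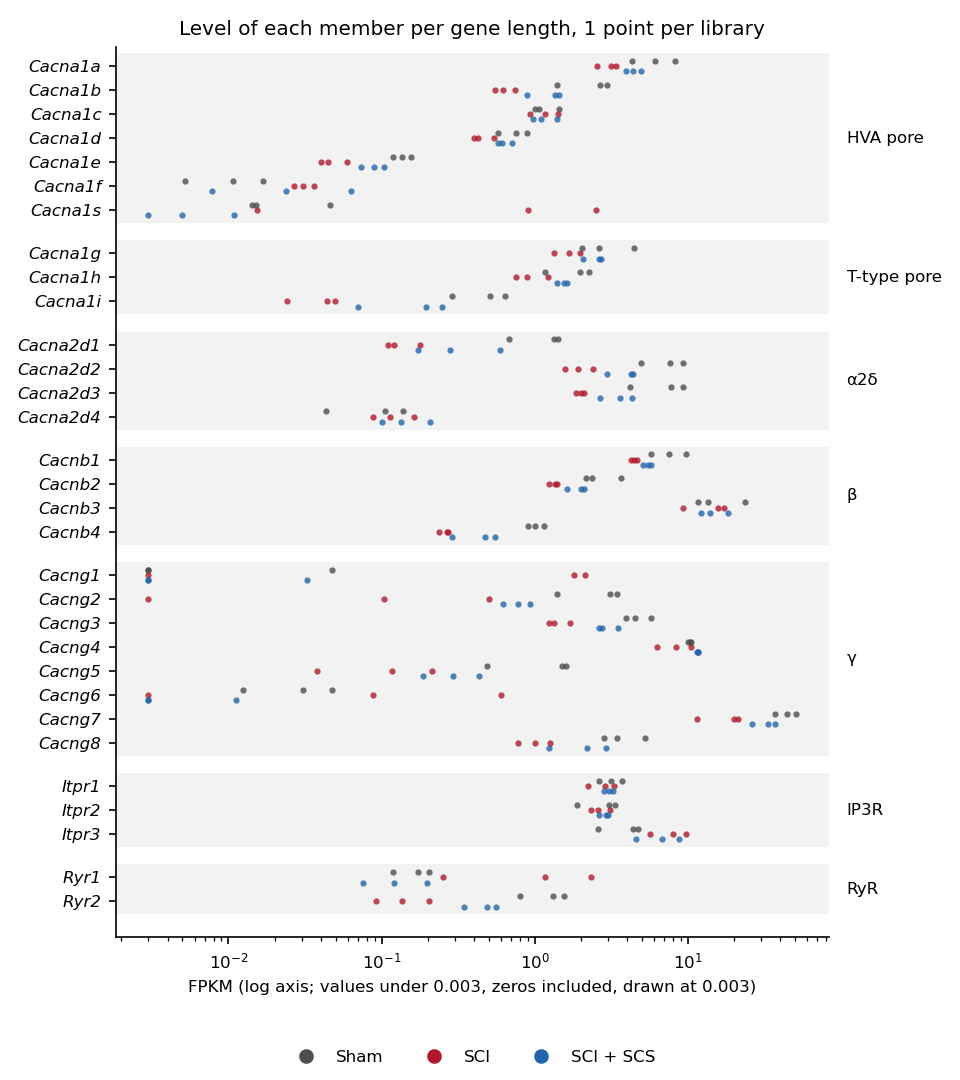
FPKM of each member in each library on a log axis, grouped by role, with values under 0.003 FPKM (zeros included) drawn at 0.003. Grey, red and blue points are the 3 Sham, 3 SCI and 3 SCI + SCS libraries; Cacng7 lies highest, at 37.2 to 51.1 FPKM in Sham, and Cacna1s and Cacng1 are high only in 2 SCI libraries.

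Among the high-voltage-activated pores, the presynaptic channels were lower in SCI, while the L-type channel Cacna1c did not pass the test. Cacna1a, the P/Q-type pore, was at 57.7, 44.3 and 31.00 CPM in the Sham libraries, 25.4, 21.4 and 17.1 CPM in the SCI libraries and 25.5, 29.00 and 31.9 CPM in the SCI + SCS libraries. All SCI libraries lay below all Sham libraries, and the log2 fold change was -1.08 (SE 0.26), adjusted p = 0.014. It fell short of 2-fold without Sham replicate 1 (-0.84, adjusted p = 0.0298) and without SCI replicate 3 (-0.95, adjusted p = 0.0481). The fall of Cacna1b, the N-type pore, was steeper, from 32.99, 35.04 and 17.1 CPM in Sham to 10.1, 7.18 and 6.4 CPM in SCI, 3.64-fold, with a log2 fold change of -1.86 (SE 0.32) and adjusted p = 0.0046. The SCI + SCS libraries stood at 10.6, 16.2 and 17.05 CPM, each above the highest SCI library. Cacna1e, the R-type pore, is also found at presynaptic terminals and in dendrites. Its levels were 1.48, 1.24 and 1.11 CPM in Sham, 0.419, 0.525 and 0.405 CPM in SCI and 0.8, 0.951 and 0.674 CPM in SCI + SCS, and its log2 fold change in SCI was -1.52 (SE 0.30) with adjusted p = 0.00698. The 3 groups of Cacna1e did not overlap.

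The L-type pores behaved in other ways. Cacna1c, which is also the cardiac and smooth muscle channel, lay between 10.4 and 16 CPM in all 9 libraries, with a log2 fold change of -0.14 (SE 0.18) between SCI and Sham, adjusted p = 0.524. Cacna1d, an L-type pore of neurons and endocrine cells, was at 9.06, 7.35 and 5.66 CPM in Sham, 4.7, 5.11 and 3.76 CPM in SCI and 5.57, 5.87 and 6.77 CPM in SCI + SCS, and was lower in SCI by less than 2-fold, with a log2 fold change of -0.72 (SE 0.23) and adjusted p = 0.0406. That p was 0.0597 to 0.114 without any one library other than Sham replicate 3. Cacna1f, the retinal L-type pore, had between 4 and 34 counts per library, and its log2 fold change of 1.44 had adjusted p = 0.0577. As a consequence of these unequal changes the order of the pores differed between groups. Cacna1b made up 18.8 to 25.9% of the summed FPKM of the high-voltage-activated pores in the Sham libraries, and 9.19 to 11.1% in the SCI libraries. Cacna1c made up 8.12 to 13.5% in Sham and 11.5 to 24% in SCI. In SCI replicates 1 and 3, Cacna1s, a muscle gene, took 30.9% and 15.3% of the sum, which lowers every other share there. In each Sham library Cacna1b was therefore above Cacna1c per length, at 2.65, 2.97 and 1.4 against 1.06, 1.44 and 1.004 FPKM, and in each SCI library it was below, at 0.743, 0.618 and 0.549 against 0.93, 1.17 and 1.42 FPKM. Cacna1a led this role in all 9 libraries.

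All T-type pores were lower in SCI at an adjusted p under 0.05, and one of them, Cacna1i, lost far more than the others. Cacna1g stood at 47.2, 26.6 and 20.9 CPM in Sham, 15.4, 19.6 and 16.3 CPM in SCI and 20.7, 26.7 and 27.2 CPM in SCI + SCS, with a log2 fold change of -0.90 (SE 0.31) in SCI and adjusted p = 0.047. Cacna1h, the T-type channel of nociceptive sensory neurons, was at 23.5, 19.8 and 11.9 CPM in Sham, 8.63, 11.9 and 8.75 CPM in SCI and 13.9, 15.5 and 16.1 CPM in SCI + SCS; 1 Sham and 1 SCI library met at 11.9 CPM, and the log2 fold change was -0.93 (SE 0.28) with adjusted p = 0.0314. Without any one library other than Sham replicate 3, the adjusted p of Cacna1g was 0.0658 to 0.125. Both passed 2-fold without Sham replicate 3 (-1.14 for Cacna1g and -1.18 for Cacna1h), and Cacna1h also without SCI replicate 2 (-1.11), and Cacna1h had an adjusted p of 0.0824 to 0.0955 without any other single library. Cacna1i, a T-type pore found mainly in neurons, fell 12.3-fold. Its levels were 5.69, 4.35 and 2.51 CPM in Sham and 0.241, 0.412 and 0.376 CPM in SCI, a log2 fold change of -3.62 (SE 0.41) with adjusted p = 0.00171. In the SCI + SCS libraries it was at 0.603, 2.11 and 1.66 CPM, each between the SCI and the Sham libraries. Its share of the summed T-type FPKM was 8.29 to 9.96% in Sham, 1.15 to 1.70% in SCI and 1.98 to 5.61% in SCI + SCS, whereas the shares of Cacna1g were 51.4 to 60.7% in Sham and 60.8 to 64.0% in SCI.

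Of the 4 α2δ subunits, 3 were called lower in SCI, and the median log2 fold change over all 4 was the lowest of any role, -1.87. The most abundant was Cacna2d2, at 60.97, 47.7 and 31.2 CPM in Sham, 13.6, 14.6 and 9.57 CPM in SCI and 18.3, 26.3 and 27.00 CPM in SCI + SCS. It fell 3.75-fold (log2 fold change -1.91, SE 0.28, adjusted p = 0.00306), and its 3 groups did not overlap. Cacna2d3, at about the same level, went from 42.7, 33.4 and 18.5 CPM to 9.39, 8.52 and 9.04 CPM in SCI (log2 fold change -1.83, SE 0.30, adjusted p = 0.00387). It was at 11.8, 15.9 and 18.96 CPM in SCI + SCS, where the highest library passed the lowest Sham library. Cacna2d1, which encodes α2δ-1, a gabapentin-binding subunit, was the least abundant of the 3 in this tissue and lost the most. Its levels were 4.12, 4.52 and 2.002 CPM in Sham, 0.673, 0.511 and 0.419 CPM in SCI and 0.421, 1.56 and 1.08 CPM in SCI + SCS, and its log2 fold change in SCI was -2.74 (SE 0.40), a 6.7-fold fall, with adjusted p = 0.00292. It made up 6.68 to 8.43% of the summed α2δ FPKM in Sham and 2.61 to 4.32% in SCI. As the length behind its FPKM differed between libraries, this share is less reliable than its CPM. The fourth, Cacna2d4, a subunit known from photoreceptors, had 16 to 78 counts per library and a log2 fold change of 0.36 (SE 0.51), adjusted p = 0.583. Summed over the role, α2δ FPKM went from 15.6 ± 5.20 in Sham to 4.22 ± 0.37 in SCI and 7.88 ± 1.70 in SCI + SCS (mean ± SD, n = 3).

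The β subunits bind the pore inside the cell and carry it to the membrane. Cacnb4 had the smallest p of all members in SCI against Sham. It was at 8.05, 8.52 and 6.74 CPM in Sham and 1.93, 1.9 and 1.87 CPM in SCI, with a log2 fold change of -2.05 (SE 0.18) and adjusted p = 0.00114. The SCI + SCS libraries, at 2.06, 3.55 and 3.93 CPM, all lay above the SCI and below the Sham libraries. Cacnb2 was at 19.1, 11.6 and 10.8 CPM in Sham, 6.87, 6.61 and 6.42 CPM in SCI and 8.07, 10.4 and 9.94 CPM in SCI + SCS, with a log2 fold change of -1.08 (SE 0.24) in SCI and adjusted p = 0.0117, which was -0.77 without Sham replicate 1 (adjusted p = 0.0105). Cacnb1, which serves both neuronal and skeletal muscle channels, was lower by less than 2-fold (log2 fold change -0.80, SE 0.22, adjusted p = 0.0244), at 23.7 to 41.4 CPM in Sham and 16.8 to 21.6 CPM in SCI. Its adjusted p was 0.0592, 0.0756 and 0.0792 without Sham replicate 2, SCI replicate 2 and SCI replicate 3. Cacnb3, the most abundant β subunit, was at 43.96, 72.3 and 36.8 CPM in Sham, 32.8, 51.3 and 47.5 CPM in SCI and 55.8, 37.8 and 42.7 CPM in SCI + SCS. These groups overlapped, and the log2 fold change between SCI and Sham was -0.24 (SE 0.29), adjusted p = 0.52. Cacnb3 accounted for 48.4 to 68.0% of the summed β FPKM in Sham and 60.4 to 73.8% in SCI, and Cacnb4 for 3.32 to 4.45% and 1.17 to 1.53%.

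Of the 7 γ subunits tested, 5 were called lower in SCI, all of them transmembrane AMPA receptor regulatory proteins: Cacng2 (stargazin), Cacng3, Cacng5, Cacng7 and Cacng8. Cacng7, the most abundant member of the whole set, was at 142, 118 and 101 CPM in Sham, 64.3, 51.6 and 30.02 CPM in SCI and 68.9, 99.1 and 88.04 CPM in SCI + SCS, with a log2 fold change of -1.32 (SE 0.29) in SCI and adjusted p = 0.0104. For Cacng3 the levels were 16.1, 12.1 and 10.8 CPM in Sham, 4.11, 4.44 and 3.25 CPM in SCI and 7.35, 7.04 and 9.32 CPM in SCI + SCS, and the log2 fold change was -1.74 (SE 0.22) with adjusted p = 0.00207. The 3 groups of both genes were separate, with SCI + SCS in between. Cacng8 fell from 13.2, 8.35 and 6.92 CPM in Sham to 2.14, 2.94 and 2.36 CPM in SCI (log2 fold change -1.95, SE 0.29, adjusted p = 0.00311) and was at 2.99, 5.26 and 7.04 CPM in SCI + SCS. The 2 scarcer genes fell furthest. Cacng2 had 306, 362 and 165 counts in the Sham libraries and 13, 46 and 0 in the SCI libraries, or 4.81, 4.11 and 1.89 against 0.165, 0.653 and 0 CPM, with a log2 fold change of -3.73 (SE 1.12) and adjusted p = 0.0311. The call was lost without Sham replicate 1, Sham replicate 2 or SCI replicate 1 (adjusted p = 0.0691, 0.0783 and 0.0913), and the log2 fold change was -5.40 without SCI replicate 2. Cacng2 was at 0.828, 1.25 and 1.03 CPM in SCI + SCS. Cacng5 was at 3.87, 3.93 and 1.24 CPM in Sham, 0.114, 0.284 and 0.52 CPM in SCI and 0.463, 0.738 and 1.07 CPM in SCI + SCS, with a log2 fold change of -3.32 (SE 0.69) in SCI and adjusted p = 0.00868, and of -3.94 without SCI replicate 3 (adjusted p = 0.0169).

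Cacng4, a relative of the same AMPA receptor group, was not called. Its levels lay between 48.4 and 50.6 CPM in Sham, 28.9 and 47.9 CPM in SCI and 53.2 and 55.0 CPM in SCI + SCS, with a log2 fold change of -0.30 (SE 0.19) between SCI and Sham, adjusted p = 0.232; the SCI libraries lay below the Sham libraries, by a narrow gap. Its share of the summed γ FPKM was 13 to 18.7% in Sham and 24.4 to 30.9% in SCI, while that of Cacng7 was 65.7 to 66.4% and 51.3 to 61.9%. In the genome these genes stand in clusters. On chromosome 1 of mRatBN7.2, the build named in the submitters' processing notes, Cacng6 (65732632 to 65747341), Cacng8 (65755334 to 65779089) and Cacng7 (65800355 to 65831006) lie side by side on the minus strand. On chromosome 10, Cacng1 (92652614 to 92665783), Cacng4 (92683761 to 92746126) and Cacng5 (92829196 to 92869614) do so, also on the minus strand. Calls differed between neighbours: Cacng5 was called lower in SCI, Cacng4 was not, and Cacng1 was detected mainly in the 2 libraries with muscle RNA. Cacng7 and Cacng8 were called lower and Cacng6 was not.

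**Figure D3:**
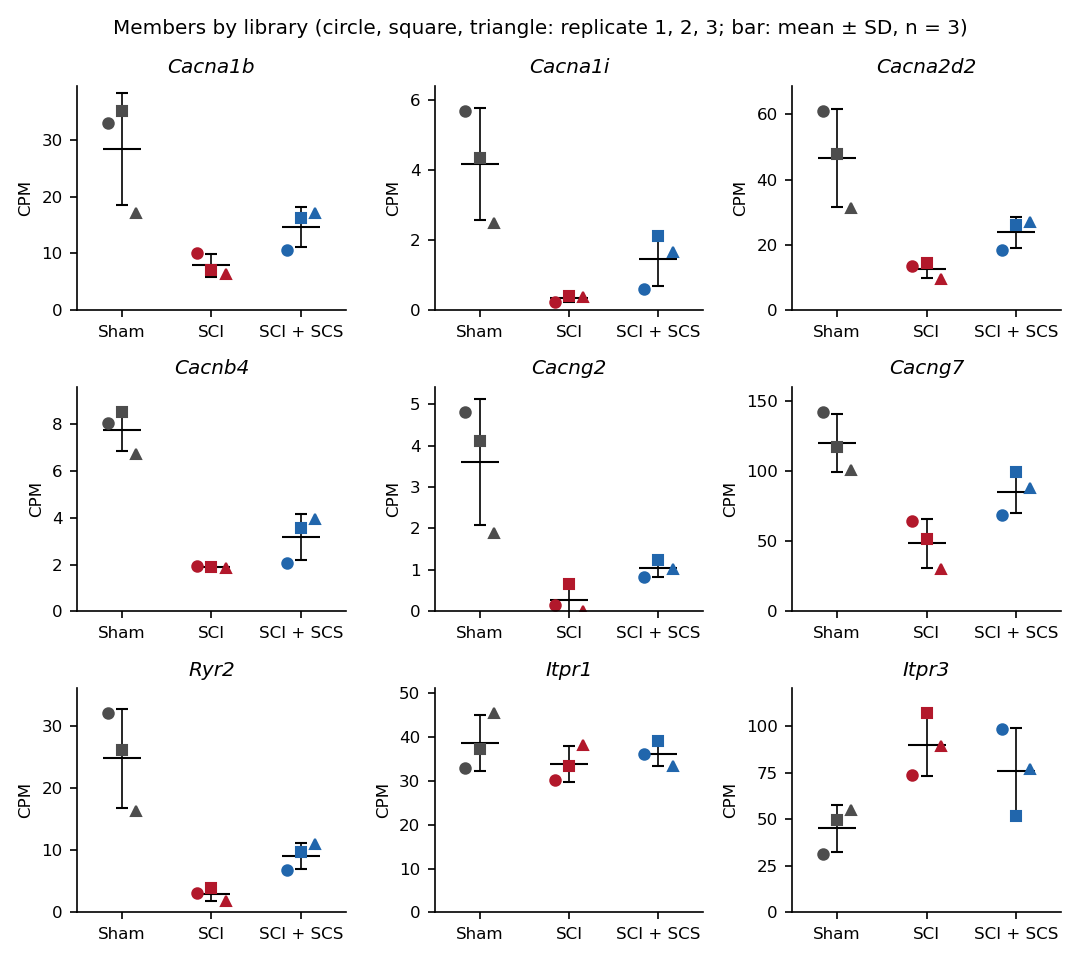
CPM of 9 members in each library (circle, square and triangle for replicates 1, 2 and 3) with the group mean ± SD (n = 3), each panel on its own linear axis from 0. Cacna1b, Cacna1i, Cacna2d2, Cacnb4, Cacng2, Cacng7 and Ryr2 are lower in all SCI than in all Sham libraries with SCI + SCS in between, Itpr1 overlaps between groups, and Itpr3 is higher in SCI.

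The release channels divided by gene. Ryr2, the ryanodine receptor of heart and of most central neurons, was at 32.03, 26.1 and 16.3 CPM in Sham, 3.05, 3.92 and 1.79 CPM in SCI and 6.83, 9.65 and 10.9 CPM in SCI + SCS. The 3 groups did not overlap, and the 8.59-fold fall in SCI had a log2 fold change of -3.10 (SE 0.38) and adjusted p = 0.00198. It made up 86.6 to 89.9% of the FPKM of the 2 ryanodine receptors in Sham, 5.48 to 44.8% in SCI and 63.9 to 88.0% in SCI + SCS, the SCI share being set in part by Ryr1 in the libraries with muscle RNA. Ryr3, outside the set because of its type in the table, went from 14.5, 10.7 and 7.97 CPM in Sham to 5.81, 7.61 and 4.77 CPM in SCI, with a log2 fold change of -0.88 (SE 0.28) and adjusted p = 0.0385.

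None of the inositol trisphosphate receptors was called in SCI against Sham, and Itpr3 was higher at an adjusted p under 0.05. Itpr1, the form abundant in neurons, lay between 30.2 and 45.6 CPM in all 9 libraries (log2 fold change -0.21, SE 0.15, adjusted p = 0.281), and Itpr2 between 35.1 and 59.7 CPM (log2 fold change -0.09, SE 0.19, adjusted p = 0.714). Itpr3 was at 31.1, 49.5 and 55.1 CPM in Sham, 73.6, 107 and 89.1 CPM in SCI and 98.4, 51.9 and 76.8 CPM in SCI + SCS. All SCI libraries lay above all Sham libraries, with a log2 fold change of 0.97 (SE 0.24), just under 2-fold, and adjusted p = 0.0161; it passed 2-fold without Sham replicate 2 (1.04), Sham replicate 3 (1.13) or SCI replicate 1 (1.10), and its adjusted p was 0.0546 without SCI replicate 2. Its share of the summed receptor FPKM was 36.5 to 41.3% in Sham, 55.4 to 61.8% in SCI and 42.4 to 60.6% in SCI + SCS. Lists of microglia and macrophage genes (638 to 737 CPM in Sham, 2763 to 3592 CPM in SCI) and of fibroblast genes (437 to 2058 CPM in Sham, 3662 to 5744 CPM in SCI) were higher in SCI as well. In SCI + SCS they were at 2344 to 2621 and 2250 to 3826 CPM. Other cell type lists were also higher in SCI, among them pericyte and smooth muscle genes (230 to 350 CPM in Sham, 414 to 616 CPM in SCI). The part of these cells in the level of Itpr3 was not tested.

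Of the 31 members, 22 had an entry in a RefSeq table of promoter windows (build GRCr8, 250 bases before to 50 after the start, the first listed start of each gene). The windows of Ryr2, which fell, of Itpr3, which was higher, and of Ryr1 and Cacna1s, which are skeletal muscle genes, are shown so that the release channels and the muscle voltage sensor, which differed in direction, can be read side by side. Capitals mark every match, on either strand, to a GC box (GGGCGG), an E-box of the type bound by myogenic factors (CAGCTG) or a TATA box (TATAAA), and none of the 3 motifs is contained in another. A CCAAT box (CCAAT) was searched as well and is not in capitals.
Ryr2, chr17:63081277-63081576, plus strand: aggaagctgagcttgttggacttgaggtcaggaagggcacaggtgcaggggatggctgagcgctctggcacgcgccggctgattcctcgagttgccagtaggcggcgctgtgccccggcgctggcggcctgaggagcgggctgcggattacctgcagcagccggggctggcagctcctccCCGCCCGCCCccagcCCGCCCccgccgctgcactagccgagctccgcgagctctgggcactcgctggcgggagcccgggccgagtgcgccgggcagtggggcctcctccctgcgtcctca
Itpr3, chr20:5138562-5138861, plus strand: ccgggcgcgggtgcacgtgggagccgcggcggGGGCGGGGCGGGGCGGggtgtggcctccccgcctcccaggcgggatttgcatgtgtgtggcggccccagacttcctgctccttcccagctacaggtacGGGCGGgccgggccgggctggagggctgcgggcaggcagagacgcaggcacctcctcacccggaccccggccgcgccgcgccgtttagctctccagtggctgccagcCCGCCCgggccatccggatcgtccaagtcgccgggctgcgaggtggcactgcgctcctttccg
Ryr1, chr1:93551256-93551555, minus strand: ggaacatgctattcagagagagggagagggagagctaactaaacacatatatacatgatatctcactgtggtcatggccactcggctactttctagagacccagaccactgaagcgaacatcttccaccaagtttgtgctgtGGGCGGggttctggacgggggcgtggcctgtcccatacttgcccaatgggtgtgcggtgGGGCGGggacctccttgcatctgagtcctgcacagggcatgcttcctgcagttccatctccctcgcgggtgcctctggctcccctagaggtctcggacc
Cacna1s, chr13:50045418-50045717, plus strand: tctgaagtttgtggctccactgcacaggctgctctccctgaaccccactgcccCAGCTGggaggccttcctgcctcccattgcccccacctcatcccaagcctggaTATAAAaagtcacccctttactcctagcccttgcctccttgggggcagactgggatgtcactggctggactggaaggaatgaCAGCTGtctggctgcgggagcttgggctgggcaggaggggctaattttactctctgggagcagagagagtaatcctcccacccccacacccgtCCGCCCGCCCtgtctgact
The windows of Ryr2 and Itpr3 were rich in G and C (73% and 76%), with 28 and 35 CpG dinucleotides and 3 and 5 GC boxes, and neither had an E-box or a TATA box. The window of Cacna1s held 4 CpG dinucleotides, 2 E-boxes, 2 GC boxes and 1 TATA box, and that of Ryr1 held 10 CpG dinucleotides, 2 GC boxes and no E-box. Over 27457 windows of 300 bases, 34.9% held a GC box, 15.1% an E-box, 14.3% a TATA box and 37.7% a CCAAT box, and 16, 4, 2 and 5 of the 22 members did. The member windows had a median of 26 CpG dinucleotides and 67.7% GC, against 7 and 52.3% over all windows. Both CpG-poor and CpG-rich windows occurred among the members called lower. Cacng5 and Cacng2, which had the lowest fold changes among the lower members with a window, had 2 and 7 CpG dinucleotides, whereas Cacna2d1 and Cacna2d2, also lower, had 41 and 44. These matches describe letters in the windows only.

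Cacna1s, Cacng1, Ryr1 and Cacng6 were high in the same 2 SCI libraries. Cacna1s, the voltage sensor of skeletal muscle, had 9, 33 and 11 counts in the Sham libraries, 1717, 9 and 471 in the SCI libraries and 3, 7 and 0 after stimulation. Cacng1, the γ subunit of the same muscle channel, had 0, 7 and 0 counts in Sham, 260, 0 and 231 in SCI and 4, 0 and 0 in SCI + SCS, and it passed the filter for no comparison. Ryr1, the release channel of the sarcoplasmic reticulum, had 218, 340 and 200, then 3928, 324 and 1478 and then 263, 162 and 91 counts, or 3.43, 3.86 and 2.29 CPM in Sham, 49.9, 4.6 and 21.4 CPM in SCI and 3.69, 2.3 and 1.43 CPM in SCI + SCS. In each case SCI replicates 1 and 3 were high, and SCI replicate 2 was within the Sham range or, for Ryr1, just above it. Cacng6, a close relative of Cacng1, followed with 3, 15 and 10 counts in Sham, 181, 0 and 21 in SCI and 0, 3 and 0 in SCI + SCS. Most of the 19 muscle genes in the table had the same distribution, for example Acta1 with 77754, 81 and 26753 counts and Ckm with 42520, 18 and 7696 counts in the SCI libraries, and 15 of the 19 were called higher in SCI. Pvalb, which neurons also express, was at 103, 13.5 and 18.9 CPM in the SCI libraries against 47.1 to 64.4 CPM in Sham, and Des was also raised in SCI replicate 2, at 46.4 CPM against 11.7 to 16.8 CPM in Sham. Mb, the oxygen store of muscle, was at 0 in Sham replicate 1 and in SCI + SCS replicates 1 and 3 and had 19281, 3 and 12079 counts in the SCI libraries.

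Cacna1s and Ryr1 were the only members called higher in SCI, with log2 fold changes of 5.43 (SE 1.58) and 2.96 (SE 0.79) and adjusted p = 0.0287 and 0.0213. Neither call held without SCI replicate 1 (log2 fold changes of 3.97 and 2.0, adjusted p = 0.0740 and 0.0513). Leaving out any single Sham library also lost both calls (adjusted p of 0.0708 to 0.0795 for Cacna1s and 0.0560 to 0.0620 for Ryr1), as did leaving out SCI replicate 3 for Cacna1s (adjusted p = 0.0581). Without SCI replicates 1 and 3 the log2 fold changes were -0.76 for Cacna1s, with the direction reversed, and 0.51 for Ryr1, with adjusted p = 0.626 and 0.375. Cacng6 had a log2 fold change of 2.91 (SE 1.53) and adjusted p = 0.154; it was called without SCI replicate 2 (3.49, adjusted p = 0.0388) and was at 0.40 without SCI replicate 1. The other subunits of the muscle channel did not share the pattern. Cacnb1 was at 21.6, 17.4 and 16.8 CPM and Cacna2d1 at 0.673, 0.511 and 0.419 CPM in SCI replicates 1, 2 and 3.

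**Figure D4:**
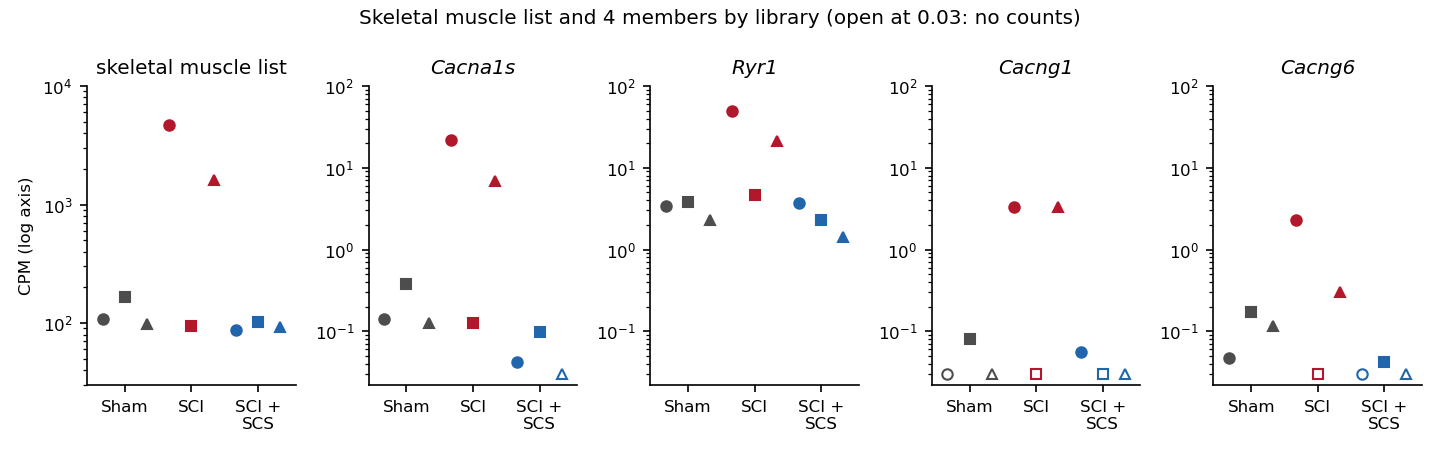
Summed CPM of 19 skeletal muscle genes and CPM of Cacna1s, Ryr1, Cacng1 and Cacng6 in each of the 9 libraries, on log axes, with open symbols at 0.03 CPM for libraries without counts. SCI replicates 1 and 3 (red circle and triangle) are the high points in every panel, and SCI replicate 2 (red square) is near the Sham and SCI + SCS libraries.

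The members were next set against the neuron list. The ratio of each member's CPM (plus 0.05) to the summed CPM of the 16 neuron genes was compared between groups without a test. Because the list fell, 84.3% of all 17822 genes were higher relative to it in SCI without overlap of the libraries, and 0.264% (47 genes) were lower. Among the 30 members, 18 were higher and 1 lower. The lower one was Ryr2, whose log2 ratio was -8.50 to -8.14 in Sham and -9.74 to -8.57 in SCI, a mean difference of -0.70, and -8.53 to -8.16 in SCI + SCS. The same single member was lower when Snap25, Syt1 and Rbfox3 alone served as reference (a mean difference of -0.84). That reference is mostly Snap25, which is also in the list, so it is no independent check. Both sums are set by their abundant genes. Map2 (-3.74), Syt1 (-3.51), Gad2 (-3.50), Slc6a5 (-3.31) and Nefl (-3.13) had lower log2 fold changes in SCI than Ryr2 (-3.10). The other list genes fell less than Ryr2. Mean ratios were also lower in SCI for Cacng2 (-1.73), Cacna1i (-0.998), Cacng5 (-0.73) and Cacna2d1 (-0.18), but with overlapping libraries. Cacna1b, Cacna1e, Cacna2d2, Cacna2d3, Cacnb4, Cacng3 and Cacng8, all called lower in SCI, were 0.38 to 0.98 higher relative to the list and overlapped with Sham. Of the 15 members called lower, Cacna1a (1.35), Cacnb2 (1.38) and Cacng7 (1.02) were higher relative to the list without overlap. Ryr2 was lower, and the others overlapped with Sham. The 15 were picked as lower in these same libraries, so their place against the list was in part fixed in advance. The part of fewer neurons was not tested.

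**Figure D5:**
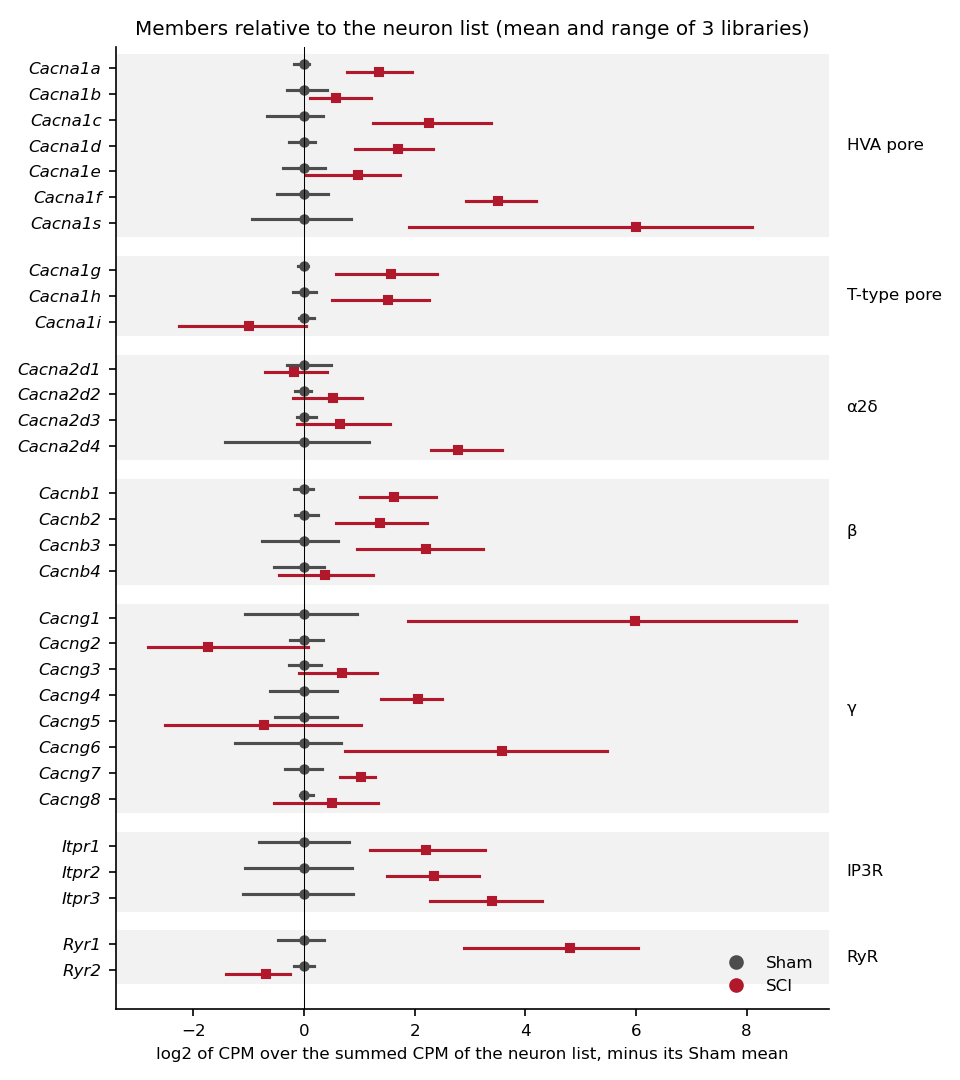
Log2 ratio of each member's CPM to the summed CPM of the 16 neuron genes, relative to its Sham mean, with points for the group mean and lines for the range of the 3 libraries (grey Sham, red SCI). Ryr2 is the 1 member whose SCI range lies wholly below its Sham range, and the members with muscle signal reach the furthest right.

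Between SCI + SCS and SCI, 0 of the 28 members tested were called by edgeR, against 0.00566% of 17663 genes (1 gene, which has no symbol in the table). At an unadjusted p under 0.05, 15 members were higher in SCI + SCS and 1, Ryr1, was lower. Of all 17663 genes, 2348 (13.3%) were higher and 1926 lower. Under an adjusted p of 0.1, 6 members were higher, against 4.19% of all genes, and Ryr1 was lower. In either direction 1200 genes were under 0.1, 740 of them higher. The 3 SCI + SCS libraries lay above the 3 SCI libraries for 17 members, against 15.7% of all genes. The median log2 fold change was 0.59 over the members and -0.01 over all genes. By DESeq2, 6 of 30 members were called, against 4.69% of 16197 genes. Of these, Ryr2 (log2 fold change 1.65, adjusted p = 3.27e-05), Cacng3 (1.01, adjusted p = 0.000128), Cacna1i (2.10, adjusted p = 0.00388) and Cacng8 (1.04, adjusted p = 0.0231) were higher, and Cacna1s (-7.66, adjusted p = 0.00140) and Ryr1 (-3.36, adjusted p = 0.00498) lower. Cacna1s, with its few counts in SCI + SCS, was not tested by edgeR, and it and Ryr1 moved with the muscle signal of SCI replicates 1 and 3. The neuron list had a median log2 fold change of 1.03 in this comparison, with 8 of 16 genes higher at an unadjusted p under 0.05, and its part in the member values was not tested.

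The 7 members nearest the threshold in edgeR were 6 higher ones and Ryr1, which was lower (-3.34, SE 0.83, adjusted p = 0.0932). Cacng3 had a log2 fold change of 1.01 (SE 0.19) and Ryr2 of 1.65 (SE 0.32), both with adjusted p = 0.0774. Cacna2d2 (0.93, SE 0.21) and Cacna2d3 (0.80, SE 0.18) followed with adjusted p = 0.0872, then Cacna1i (2.10, SE 0.52, adjusted p = 0.093) and Cacna1h (0.64, SE 0.16, adjusted p = 0.0954). Further members at an unadjusted p under 0.05 were Cacna1a (0.45), Cacna1b (0.90), Cacna1d (0.43), Cacna1e (0.85), Cacna1g (0.55), Cacnb2 (0.52), Cacnb4 (0.75), Cacng7 (0.82) and Cacng8 (1.05), with adjusted p between 0.101 and 0.196. The values of Cacng2 (1.93, SE 1.02) and Cacng5 (1.31, SE 0.60) had wide errors and adjusted p of 0.295 and 0.232; without SCI replicate 2 the first was 3.58, and without SCI replicate 3 the second was 1.92. Cacna2d1 was at 0.94 (SE 0.50) and adjusted p = 0.3. Cacna1c (-0.03, SE 0.17), Cacnb3 (0.06, SE 0.21), Itpr1 (0.10, SE 0.11), Itpr2 (0.10, SE 0.09) and Itpr3 (-0.24, SE 0.24) had adjusted p of 0.583 or more. Relative to the neuron list, Ryr2 was higher in SCI + SCS than in SCI without overlap, with a mean difference of 0.64 on the log2 scale. Of the 28 members tested it was the 1 higher, and 2 were lower without overlap, Cacna2d4 (-0.83) and Ryr1 (-3.89). Of all 17663 genes, 21 were higher and 4477 lower in this way. This comparison and that of SCI with Sham share the SCI libraries.

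Against Sham, 5 of 27 members tested were called lower in SCI + SCS, where 5.44% of 17640 genes were, and 7 were lower at an adjusted p under 0.05 without the fold threshold, against 16.2% of all genes. The 5 were Cacng5 (log2 fold change -1.99, SE 0.53, adjusted p = 0.032), Cacna2d1 (-1.79, SE 0.53, adjusted p = 0.0428), Cacng2 (-1.79, SE 0.39, adjusted p = 0.0179), Ryr2 (-1.44, SE 0.29, adjusted p = 0.0144) and Cacnb4 (-1.29, SE 0.26, adjusted p = 0.0157), and the other 2 were Cacna2d2 (-0.96, SE 0.27, adjusted p = 0.036) and Cacng3 (-0.72, SE 0.20, adjusted p = 0.0346). None of the 5 calls held without each library in turn, and without Sham replicate 2 none was left. Cacna1i was at -1.52 (SE 0.51) with adjusted p = 0.0616, Cacna1b at -0.95 (SE 0.31) with adjusted p = 0.056, and Cacna2d3 at -1.02 (SE 0.32) with adjusted p = 0.0527. The median log2 fold change over the members was -0.54, and 0.01 over all genes. Itpr3 was at 0.75 (SE 0.29), adjusted p = 0.0915, and Ryr1 at -0.37 (SE 0.38), adjusted p = 0.484.

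The 7 lists of other calcium handling genes, 99 genes in the table, were compared in the same way. Between SCI and Sham, 48 of the 97 tested were called lower and 9 higher, a median log2 fold change of -1.02. The same rule called 13.6% of all genes lower and 13.4% higher, the shares to set beside each list below. Calcium channel anchoring at the presynaptic active zone was the group that fell throughout: all 15 genes were called lower, among them Rims1 (-4.10, SE 0.46, adjusted p = 0.00167), Erc2 (-3.78, SE 0.47, adjusted p = 0.00205) and Bsn (-3.65, SE 0.62, adjusted p = 0.00448), which hold P/Q- and N-type channels at release sites. Of the calcium buffers and sensors, 15 of 17 were lower, led by Ncald (-3.59, adjusted p = 0.000998), Ncs1 (-2.87, adjusted p = 0.00199) and Caln1 (-2.01, adjusted p = 0.0139). Of calmodulin and the calmodulin kinases, 9 of 14 were lower, led by Camk2a (-2.89, adjusted p = 0.00370), Camk1d (-2.50, adjusted p = 0.00363) and Camk1g (-2.06, adjusted p = 0.00368). Of the pumps and exchangers, 5 of 17 were lower and 1, Slc8b1 (1.64, adjusted p = 0.00312), higher, with Slc24a2 (-3.54, adjusted p = 0.00150), Atp2b3 (-2.35, adjusted p = 0.00198) and Atp2b2 (-1.85, adjusted p = 0.00819) first, all of them carriers that export calcium across the plasma membrane. The 8 genes of store-operated entry, Stim and Orai genes among them, gave 0 calls by edgeR, with Saraf lower (-0.79, adjusted p = 0.00240) and Orai1 higher (0.86, adjusted p = 0.00352) by less than 2-fold, and 2 lower and 1 higher at an unadjusted p under 0.05 (Orai2 the other lower one). Of 7 mitochondrial uptake genes, Micu3 was lower (-2.52, adjusted p = 0.00155) and Mcub higher (1.88, adjusted p = 0.0157). The partners of the release channels at membrane junctions split, with 3 lower and 7 higher of 19. The 3 with the largest fold changes, Trdn (6.16, adjusted p = 0.00698), Srl (3.42, adjusted p = 0.0100) and Hrc (3.12, adjusted p = 0.0133), are muscle genes of the sarcoplasmic reticulum, and like Ryr1 they were highest in SCI replicates 1 and 3. Trdn was at 17.6, 0.752 and 7.75 CPM in the SCI libraries, Srl at 18.2, 2.31 and 12.4 CPM and Hrc at 17.5, 2.19 and 8.46 CPM, against at most 1.38 CPM in any Sham library. With SCI replicates 1 and 3 left out, 3 genes of the lists were called, Ncald, Slc24a2 and Pvalb, all lower. Between SCI + SCS and SCI, 0 genes of these lists were called by edgeR and 21 by DESeq2. DESeq2 called 4.69% of all 16197 genes it tested there. Before adjustment, 52 list genes were higher and 12 lower by edgeR (p under 0.05). With that cutoff, 2348 (13.3%) of all 17663 genes were higher and 1926 lower. Between SCI + SCS and Sham, 23 list genes were called lower and 2 higher, Slc8b1 (1.26, adjusted p = 0.0174) and Trdn (1.63, adjusted p = 0.0492). Over all 17640 genes, 960 were called lower and 1108 higher in that comparison. Genes named by fold change rank follow the rule for the lists, and Saraf, Orai1, Orai2, Slc8b1 and Pvalb were named after their values were seen.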

How the data were processed

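RNA of whole spinal cord tissue (the ninth to the eleventh thoracic segment) was captured by oligo(dT) and sequenced in 9 libraries, 3 per group, with 1 batch label for all. Per the labels, the authors trimmed reads with fastp 0.23.2 and aligned them with HISAT2 2.2.1 to mRatBN7.2. The counting program is not given in the sources used here. The authors deposited raw counts per gene and, beside them, FPKM values, which were used only for levels between genes and as an alternative scale. The study's methods set rats of each sequenced group aside for RNA sequencing, but the labels do not tie libraries to rats, so the spread between libraries that the p-values measure may be in part technical. Of the rows, 4340 had no symbol and were kept.

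Each pair of groups was fitted on its own 6 libraries over the whole table with edgeR 4.0.16 (filterByExpr, TMM, quasi-likelihood F test) in R 4.3.3, and p-values were adjusted by the Benjamini-Hochberg method over all genes tested. A gene was called at a log2 fold change beyond 1 and an adjusted p under 0.05, and the standard error was the fold change divided by the square root of F. The script was tested on simulated data with known changes. DESeq2 1.42.0, limma 3.58.1 on log2(FPKM + 1) and log2(FPKM + 0.1), other filters and size factors, 1 fit of all 9 libraries and each library left out served as alternatives. Libraries of 3 against 3 cannot reach an exact permutation p under 0.1, so none is given for single values. Intervals from counting would cover counting error only. Values per library were given for members called in any comparison, for those at an unadjusted p under 0.05 in SCI + SCS against SCI, for the member of highest mean FPKM in each role and for Cacna1s, Cacng1 and Ryr1, and up to 3 called genes of largest fold change were named per pathway list. The members, the marker lists and the pathway lists were chosen with earlier results of these data known. No protein sequences were used here, and 9 members had no promoter entry.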

Additional observations from a re-analysis of the deposited data

How the results depend on the processing

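Between SCI and Sham, 17 members were called, and 12 to 20 without 1 library. The count was 6 on log2(FPKM + 1), a scale that compresses low genes, and 1 with both SCI libraries with muscle signal left out, where 1 SCI library is assumed to vary like the Sham libraries. Over the whole table the counts were 4800 called, 2649 on log2(FPKM + 1), 777 without the 2 muscle libraries, 8796 without the fold threshold and 3908 to 5108 without 1 library. Of the pathway genes, 57 were called, 3 without the 2 muscle libraries and 48 to 60 without 1 library. The direction of Cacna1s reversed (-0.76) without the 2 muscle libraries, the construction that removes its counts.

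Between SCI + SCS and SCI, 0 members were called by edgeR, 6 by DESeq2 and 0 to 2 without 1 library (Cacna1s and Cacng1, both lower, without SCI replicate 2). Over the whole table, edgeR called 1 gene, and DESeq2 759, a minimum of 10 counts 0, rows of an identifier summed 0, log2(FPKM + 1) 20, log2(FPKM + 0.1) 19, the muscle libraries left out 3, and 0 to 123 without 1 library. Of the pathway genes, 0 were called by edgeR, 21 by DESeq2 and 0 to 5 without 1 library. The cause of the gap between edgeR and DESeq2 was not tested.

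Between SCI + SCS and Sham, 5 members were called, 0 on log2(FPKM + 1) and 0 to 9 without 1 library, with 0 without Sham replicate 2 and 9 without Sham replicate 3. Over the whole table the calls numbered 921 on log2(FPKM + 1), 5710 without the fold threshold and 950 to 2891 without 1 library. Of the pathway genes 25 were called, 10 on log2(FPKM + 1), 47 without the fold threshold and 5 to 38 without 1 library.

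Same-numbered libraries deviated together at r of -0.33 to 0.24, the highest being 0.24 and 0.20 for replicates 1 and 3 between SCI and Sham. With 3 libraries per group these values cannot exclude a pairing by replicate number. With the replicate number as a block, 15 members were called between SCI and Sham, 0 between SCI + SCS and SCI and 0 between SCI + SCS and Sham; over the whole table the counts were 4656, 0 and 715, and of the pathway genes 55, 0 and 2.

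At 3 counts per library, levels under 0.0341 to 0.0472 CPM could not be shown, which limits Cacna1f, Cacna1s, Cacng1 and Cacng6 in Sham and SCI + SCS.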
